A study of Danio rerio with 12 samples.

Results

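Microexons, taken here as exons of 30 bp or less with a mean of at least 10 junction reads per library, were read from 3 deposited tables of skipped exons in whole zebrafish embryos. Each table sets 1 homozygous mutant against wild-type controls. An event is an exon together with the neighbouring exons it is spliced to, so an exon can have several events. The microexons comprised 883 distinct events in 804 exons of 718 genes, out of 41756 events in 37368 exons of 13979 genes over the 3 tables. Of these events 725 stood in the snapc3 table, 724 in the one for lsm8, 638 in the one for tnpo3, and 552 in all 3. A further 88, 97 and 75 events of 30 bp or less in the snapc3, lsm8 and tnpo3 tables lay under the read minimum and were not described.

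The libraries fell into 4 groups of 3. Embryos of genotype snapc3-/- lack a subunit of the complex that starts transcription of small nuclear RNA genes, and all 3 libraries had mixed background A. Those of genotype lsm8-/- lack a subunit of the ring of LSm proteins bound to U6 small nuclear RNA, and all 3 libraries had mixed background B. Those of genotype tnpo3-/- lack an import receptor that carries SR splicing factors into the nucleus, and all 3 libraries had mixed background C. The wt controls comprised 1 library of each background, so the effect of a mutation cannot be told apart from that of its background by group means. Each set of 3 control libraries did include 1 with the same background as the mutants compared with it. The sources used here give neither the stage of the embryos nor whether a library was made from a single embryo or a pool, and p-values measure only the spread between these libraries.

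Microexons are too short to be defined in the same way as ordinary exons, and many depend on enhancer sequences in the upstream intron and on dedicated splicing regulators such as SRRM4 in mammals. They are best known from neurons and from muscle, where they add or remove a few amino acids in proteins of synapses, axons, the cytoskeleton and the sarcomere. A microexon whose length is a multiple of 3 leaves the reading frame intact when it is skipped, whereas skipping of another length shifts the frame if the exon lies in coding sequence.

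Over microexon events, snapc3 mutant libraries held 134150 to 151666 reads, against 131076 to 151088 in controls. In the tnpo3 comparison these were 115362 to 130996 against 112537 to 132043. The lsm8 comparison was less even, with 111246 to 146055 reads in mutants against 140967 to 163124 in controls. Over all its events, lsm8 mutants had 14668691 to 18478988 junction reads, against 20118005 to 22999590 in controls. Summed junction reads of the listed neuronal marker genes, scaled to 1e+06 junction reads of the table, were 3057 to 3432 in snapc3 mutants against 3210 to 3765 in controls, 2492 to 2788 in lsm8 mutants against 2589 to 3077, and 2986 to 3371 in tnpo3 mutants against 2817 to 3232. These ranges overlapped in each comparison. Photoreceptor markers were lower in each mutant, at 739.8 to 1060 in snapc3 mutants against 1203 to 1391 in controls, 959.1 to 1086 in lsm8 mutants against 1489 to 1851, and 1083 to 1284 in tnpo3 mutants against 1504 to 1821. Skeletal muscle markers were at 144500 to 168400 in snapc3 mutants against 87320 to 104500 in controls, without overlap. They were at 148100 to 161900 in lsm8 mutants against 129800 to 149700 and at 85540 to 100200 in tnpo3 mutants against 79440 to 91360, with overlap. The control libraries are the same 3 in each comparison. Their values differ because a sum covers only the skipped-exon events that a table lists. The sums are thus not levels of gene expression and can be set side by side only within 1 comparison. No marker with reads in a table was at 0 in either group. In whole embryos, fewer cells of a type and less RNA per cell cannot be told apart, and the part of these marker differences in microexon inclusion was not tested.

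Lengths of 30, 27 and 24 bp were the most frequent among the 804 microexons, with 122, 120 and 103 exons, and the median length was 24 bp. The shortest were 3 exons of 8 bp. Of all microexons, 616 (76.6%) had a length divisible by 3. In the snapc3, lsm8 and tnpo3 tables these shares were 80.1%, 79.7% and 82.3% of microexons, whereas 46.3%, 46.8% and 45.5% of longer tested exons had such a length. The shorter of the 2 introns beside a microexon had a median of 466, 507 and 577 bp in the 3 tables, against 878, 1058 and 931 bp beside longer exons. The tables name no exon by its place in a coding sequence or untranslated region, and that place is not stated here.

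**Figure D1:**
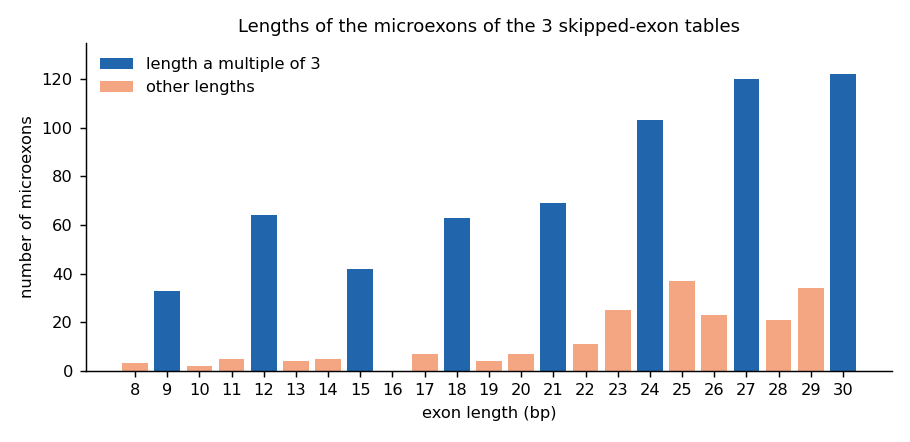
Number of microexons (y axis, exons) at each exon length (x axis, base pairs) over the 3 tables of skipped exons, with lengths divisible by 3 drawn apart from the others. The tallest bars stand at 30, 27 and 24 bp, with 122, 120 and 103 exons.

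Most genes with a microexon had 1, namely 647 genes, and 60 genes had 2, 8 had 3 and 2 had 4. The gene tnnt3b, which encodes a fast skeletal muscle troponin T, had 5, of 11, 12, 18, 19 and 21 bp. The neurexin genes nrxn1a and nrxn2a, which encode presynaptic adhesion proteins, had 4 each, of 12, 18, 27 and 30 bp in nrxn1a and of 9, 15, 21 and 27 bp in nrxn2a. A further neurexin gene, nrxn3a, had 3, as did clasp2, which encodes a microtubule plus-end protein, mybpc1, which encodes a myosin binding protein C, and prom1b, which encodes a prominin. Entries that overlap another of the same gene, as versions of 1 exon with other ends, numbered 13 in 6 genes, so that the 804 microexons lay at 797 separate places. The 3 entries of pax6a, a paired-box transcription factor gene, of 22, 24 and 30 bp, all start at position 15302384 of chromosome 25 and are counted among the 8 genes with 3.

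Inclusion is given as the percentage of a library's reads that contain the microexon, after each count was divided by the form length that the tables give for it. Differences between groups are in percentage points. In control embryos, 64.1% of the 883 microexon events had a mean inclusion of 80% or more, 24.6% lay between 20% and 80%, and 11.3% lay under 20%, with a median of 96.6%. Longer exons in the same tables were nearly all included, with 94.3% of 39374 events at 80% or more, 3.83% between 20% and 80% and a median of 100%. Intermediate inclusion was found in 27.03% of events of 8 to 9 bp, 23.6% of events of 10 to 15 bp and 35.4% of events of 16 to 21 bp. Beyond that length it became less frequent, at 21.4% of events of 22 to 30 bp, 11.9% of events of 31 to 50 bp and 4.67% of events of 51 to 100 bp. Among intermediate events, the SD over the 3 control libraries had a median of 7.58 points for microexons and 7.25 points for longer exons. The control libraries differ in background, so this SD can hold more than the spread between replicates. In events of 8 to 9 bp that median was 20.98 points over 10 events, so differences in the shortest class were hard to detect.

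Levels of the shortest microexons depend on the form length. The inclusion form of an exon of 9 bp was most often given a length of 4, against 60 for the skipping form, so each of its inclusion reads counts far more than a skipping read. In nearly always included exons of 8 to 18 bp, control inclusion reads were 0.16 of those of long exons of the same gene in the median of 22 exons, whereas the form lengths stood in a ratio of 0.0667. From 19 to 24 bp the ratios were 0.312 for reads and 0.233 for form lengths, over 25 exons. From 25 to 30 bp they were 0.327 and 0.333, over 57 exons. In the exons of 8 to 18 bp, and less so in those of 19 to 24 bp, inclusion reads were thus more than the form lengths predict. The division therefore tends to set the inclusion level of microexons of up to 24 bp too high, most of all in the shortest. It cancels in the log2 ratio that was tested between groups, but not in a difference in points.

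A table lists an event only where each form had at least 1 read over its 6 libraries. A microexon without a skipping read in the controls was thus listed only where a mutant library skipped it, and could only be lower in the mutants. Among members, 162 in the snapc3 table, 158 in the lsm8 table and 63 in the tnpo3 table had no skipping read in controls. Those without a skipping read in the mutants numbered 52, 39 and 73. Counts of lower events below carry this imbalance, and medians are also given for the events with both forms in both groups.

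Of the 6 most heavily read microexons of intermediate inclusion, none passed the limma test, and in the 5 described here at least 1 mutant group lay wholly outside the controls. Among all exons of intermediate inclusion, such separation was found in 257 of 1627, 428 of 1642 and 413 of 1663 events in snapc3, lsm8 and tnpo3 mutants. For microexons of that class it was 32 of 207, 47 of 210 and 34 of 206. A 27 bp exon of ctnnb1, the gene of beta-catenin (chr16:7445074-7445100 in build Zv9, as for all positions here), was included at 21.04%, 20.9% and 22.6% in snapc3 mutants and at 24.4%, 16.3% and 22.7% in tnpo3 mutants, against 22.2%, 23.1% and 18.3% in controls. The lsm8 mutants lay lower, at 9.26%, 11.8% and 12.3%, a difference of -10.07 points without overlap. It did not pass in limma (adjusted p = 0.282), while the FDR in the authors' deposited table was 1.55e-08. A 15 bp exon of spna2, which encodes alpha-spectrin of the membrane skeleton (chr21:11392486-11392500), stood between 73.6% and 76.1% in snapc3 mutants, between 74.9% and 78.0% in lsm8 mutants and between 78.1% and 80.3% in tnpo3 mutants, against 71.5% to 75.1% in controls. In tnpo3 mutants its 3 values lay above those of the controls, by 5.80 points in the mean, without passing the test (limma adjusted p = 0.716). Its FDR there in the authors' deposited table was 0.0309.

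Other heavily read microexons spread more widely between libraries. An 18 bp exon of slc43a2b, a member of an amino acid transporter family (chr10:24808948-24808965), ranged from 50.6% to 70.5% in snapc3 mutants, from 50.8% to 64.2% in lsm8 mutants and from 63.7% to 74.3% in tnpo3 mutants, against 55.8% to 60.5% in controls. Only the tnpo3 mutants lay wholly above the controls (9.83 points, limma adjusted p = 0.635), with an FDR of 0.00463 in the authors' deposited table. A 27 bp exon of max, whose product pairs with MYC (chr20:28867945-28867971), had 30.4%, 28.5% and 30.5% in snapc3 mutants, against 35.5%, 48.9% and 46.5% in controls. The groups did not overlap, and the difference of -13.79 points did not pass in limma (adjusted p = 0.569), while its FDR in the authors' deposited table was 0.000944. A 30 bp exon of stom, which encodes the membrane protein stomatin (chr21:16054616-16054645), had 28.9%, 32.8% and 33.7% in tnpo3 mutants, against 20.7%, 25.8% and 21.5% in controls, again without overlap and without passing in limma (adjusted p = 0.575). The authors' deposited FDR for stom in tnpo3 mutants was 0.000681. The snapc3 mutants, at 16.2% to 20.5%, and the lsm8 mutants, at 17.1% to 18.3%, lay on the other side, below every control library (limma adjusted p = 0.765 and 0.665).

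At the short end, the 8 bp exon of pitpnb, which encodes a phosphatidylinositol transfer protein (chr10:4069550-4069557), had at least 99.0% inclusion in every library of the 4 groups. Its relative pitpnaa had an 8 bp exon (chr15:27767824-27767831) with 99.8%, 100% and 99.0% in snapc3 mutants, against 100% in each control library. The 9 bp exon of postnb, a periostin gene (chr15:33162993-33163001), had at least 99.98% in every library. A 9 bp exon of spock3, which encodes an extracellular matrix proteoglycan (chr1:19441516-19441524), was between 94.4% and 96.7% over the libraries of all 4 groups. None of these 4 passed the limma test in any mutant, and 1 skipping read weighs little at these form lengths.

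Set against all tested exons, the median microexon did not move in the same way in the 3 mutants. In snapc3 mutants the median difference of the 725 events was -0.42 points, beside -0.37 points for all tested exons, and 63.3% of microexons and 67.6% of all exons were lower. In lsm8 mutants it was -0.29 points beside -0.39 points, with 60.9% and 67.9% lower. In tnpo3 mutants the median microexon was 0.27 points higher, while the median of all tested exons was -0.59 points, and 44.2% of microexons but 75.9% of all exons were lower.

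These shares depend on which events a table lists. Over the 13117 events shared by the 3 tables, the median of all exons was 0.06 points in snapc3 mutants and 0.05 points in lsm8 mutants, with 47.1% and 47.3% lower, so that its sign differed from that over each whole table. The 552 shared microexons had medians of -0.30 and -0.08 points there, with 54.9% and 51.6% lower. In tnpo3 mutants the shared events had medians of 0.41 points for microexons and -0.09 points for all exons, with 40.9% and 53.4% lower.

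Restriction to events of each whole table with both forms in both groups, which leaves out events that could move only one way, gave medians of the same sign as the whole table. The median was -0.53 points over 492 microexons in snapc3 mutants beside -0.39 points for all such exons, and -0.29 points over 507 microexons beside -0.49 points in lsm8 mutants. In tnpo3 mutants it was 0.37 points over 474 microexons beside -0.70 points. Among events of intermediate control inclusion, microexons of tnpo3 mutants had a median of 2.19 points over 206 events, against -1.22 points over all 1663 such events. The corresponding medians were -2.57 and -1.13 points in snapc3 mutants and -0.55 and -1.49 points in lsm8 mutants.

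In tnpo3 mutants the difference followed exon length across the whole table. The median was 0.27 points up to 30 bp, -0.07 points from 31 to 50 bp, -0.45 points from 51 to 100 bp, -0.62 points above 100 and up to 200 bp and -1.16 points above 200 bp. The share of exons called different, by the rule given below, went the same way, at 0.627%, 0.941%, 1.42%, 1.97% and 5.20% over those classes. In snapc3 mutants the medians were -0.42, -0.59, -0.45, -0.30 and -0.24 points over the same classes, and in lsm8 mutants -0.29, -0.46, -0.39, -0.36 and -0.49 points. The classes also differed in the share of events without a skipping read in controls, which could only be lower in mutants, with 9.87% of microexons and 65.2% of exons above 200 bp in the tnpo3 table. Over the shared events, where that share was 2.36% and 10.8%, the tnpo3 medians were 0.41, 0.21, -0.06, -0.16 and -0.58 points from the shortest class to the longest. The snapc3 medians ran the other way there, at -0.30, -0.22, -0.01, 0.11 and 0.18 points, and the lsm8 medians were -0.08, -0.11, 0.02, 0.09 and 0.15 points. Shared events without a skipping read in the mutants, which could only be higher, also differed in share between the classes. They were 8.88% of microexons and 37.9% of exons above 200 bp in snapc3 mutants, 6.88% and 35.9% in lsm8 mutants and 12.5% and 23.9% in tnpo3 mutants. Their part in these medians was not tested. These medians carry no p-value, since the exons of a class share their libraries.

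**Figure D2:**
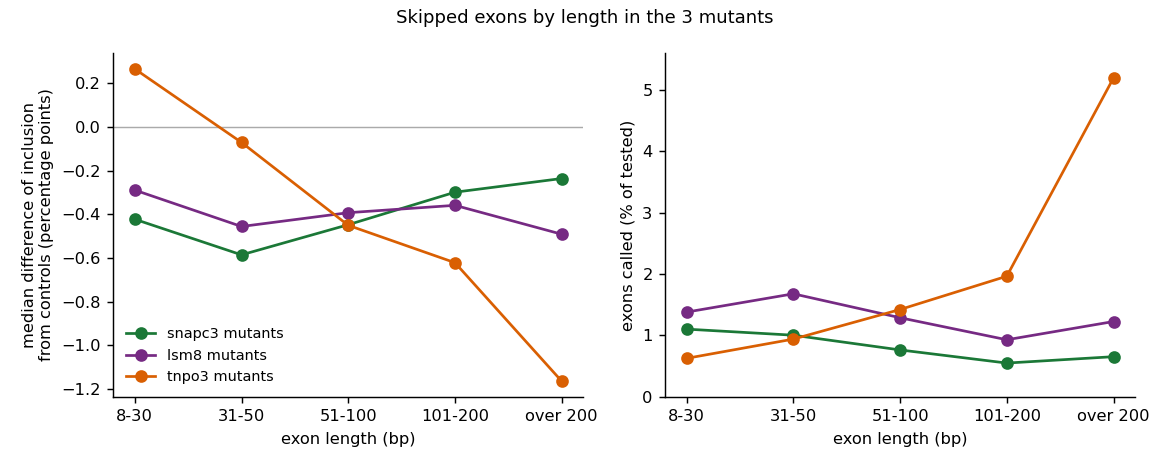
Median difference in inclusion (mutant minus control, percentage points) and share of exons called different (percent) for exon length classes from microexons to exons above 200 bp, in snapc3, lsm8 and tnpo3 mutants. In tnpo3 mutants the median goes down from 0.27 to -1.16 points and the called share goes up from 0.627% to 5.20% with length.

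The limit of 30 bp did not mark a step. Exons of 28 to 30 bp, just inside it, had 2 of 143 called in snapc3 mutants with a median of -0.59 points, and those of 31 to 33 bp, just outside, had 3 of 177 with -0.60 points. In lsm8 mutants these were 1 of 142 with -0.50 points and 5 of 196 with -0.55 points. In tnpo3 mutants they were 0 of 118 with -0.03 points and 3 of 143 with -0.11 points.

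The 552 microexon events present in all 3 tables allow each library to be placed on 1 scale. Their mean inclusion was 66.3%, 66.8% and 66.9% in the snapc3 mutant libraries, 68.0%, 67.5% and 67.9% in the lsm8 mutant libraries and 69.1%, 69.2% and 68.9% in the tnpo3 mutant libraries, against 67.8%, 67.8% and 68.7% in the control libraries. The snapc3 libraries lay below every control library and the tnpo3 libraries above every control library, while the lsm8 libraries overlapped the controls. Of the 552 events, 13 had no skipping read in controls, whereas 49, 38 and 69 had none in snapc3, lsm8 and tnpo3 mutants. Being listed in all 3 tables thus favours events that are skipped in controls, and the part of this in the placing was not tested. The group means were 66.65 ± 0.29%, 67.78 ± 0.29% and 69.08 ± 0.16% in snapc3, lsm8 and tnpo3 mutants and 68.08 ± 0.52% in controls (SD, n = 3 each). The control SD spans the backgrounds, whereas each mutant SD comes from libraries of 1 background. Over all 13117 events shared by the tables the order was another, with 87.11%, 86.85% and 86.34% in snapc3, lsm8 and tnpo3 mutants and 87.73% in controls. The placing of the groups depended on this scale. The share of inclusion reads pooled over the 552 microexons, without division by form length and weighted by reads, was 59.9% to 60.9% in snapc3 mutants, 61.4% to 62.3% in lsm8 mutants and 59.0% to 61.2% in tnpo3 mutants, against 57.7% to 59.3% in controls. On it the snapc3 and lsm8 libraries lay above every control library, and the tnpo3 libraries overlapped the controls.

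**Figure D3:**
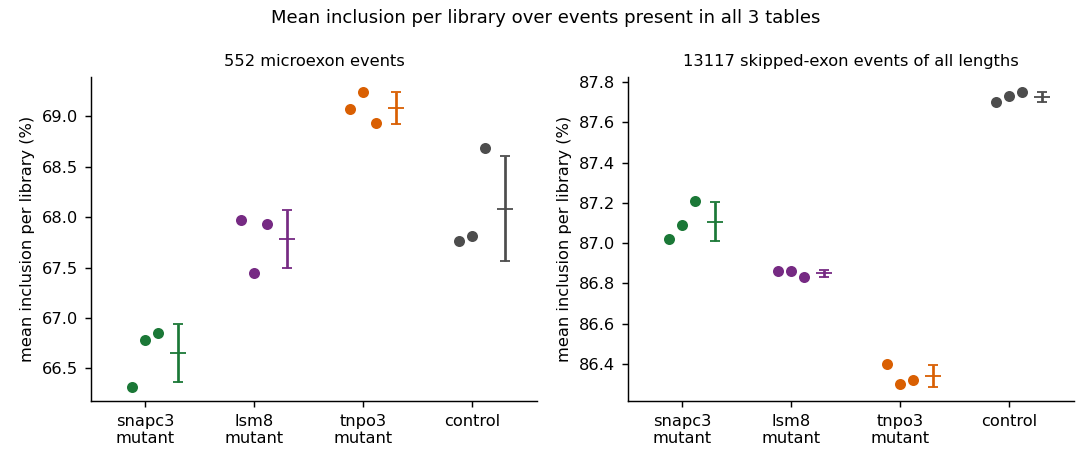
Mean inclusion (percent) in each of the 12 libraries over the 552 microexon events of all 3 tables and over the 13117 shared events of any length, with mutant groups to the left of the controls. Points are libraries and bars are group means. For microexons the tnpo3 libraries (68.9% to 69.2%) lie above the control libraries (67.8% to 68.7%), and for exons of any length they lie lowest. Of the 552 events, 13 had no skipping read in controls and 49, 38 and 69 had none in snapc3, lsm8 and tnpo3 mutants.

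A microexon was called different where limma, fitted to the log2 ratio of inclusion to skipping over all tested exons of the table, gave a Benjamini-Hochberg adjusted p under 0.05 and the group means differed by at least 10 points. In snapc3 mutants 8 of 725 microexon events (1.103%) were called, beside 0.69% of all 22314 tested exons. All 8 were lower, where 0.65% of all exons were called lower and 0.0403% higher. No microexon was called higher by limma, where 18 were higher at an unadjusted p under 0.05, and the quasi-binomial model called 0 in either direction. By the authors' deposited FDR with the same 10 points, 19 microexons (2.62%) were called, 13 lower and 6 higher, beside 1.42% of all exons, and 7 of the 8 were among them. In the 8 called exons 3 lengths were not a multiple of 3, and in 7 the groups did not overlap. The calls rest on the same library values, so separated groups among called events are no further support, here or in the other mutants. Over all tested exons the groups did not overlap in 1808 of 22314 events in snapc3 mutants. In lsm8 and tnpo3 mutants these were 2316 of 22499 and 3389 of 27050.

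The most heavily read exon among them whose called event is its main one is the 25 bp exon of itpk1 (ENSDARG00000013056), which encodes an inositol phosphate kinase, at chr20:27110258-27110282. Its inclusion was 58.3%, 58.2% and 63.4% in the snapc3 mutant libraries, against 95.8%, 95.9% and 98.7% in the control libraries. All 3 mutant libraries lay far below all 3 controls, by 36.9 points in the mean, at a mean of 254.5 reads per library. The log2 ratio of inclusion to skipping was -4.46 (SE 0.75) relative to controls (limma adjusted p = 0.00187). The same exon had 91.8%, 92.2% and 91.5% in lsm8 mutants and 100%, 99.6% and 98.2% in tnpo3 mutants, neither called against controls.

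The gene mef2cb (ENSDARG00000009418) encodes a MADS-box transcription factor of heart and skeletal muscle. Its 24 bp exon at chr5:49970175-49970198 was included at 4.13%, 4.55% and 1.84% in snapc3 mutants, against 20.9%, 12.5% and 18.9% in controls. All 3 mutant libraries lay below the already low controls, by 13.9 points in the mean (log2 ratio -2.27, SE 0.56, limma adjusted p = 0.032). This call was lost in 9 of 18 alternatives, among them without control library 1 (limma adjusted p = 0.0628), without mutant library 3 (0.115) and with precision weights (0.0907), over a range of 0.00694 to 0.466. The 30 bp exon of kifc1 (ENSDARG00000001558), which encodes a minus-end directed kinesin of the spindle, lies at chr19:7613995-7614024. It had 87.1%, 85.6% and 91.0% in snapc3 mutants, against 100%, 98.8% and 100% in controls (limma adjusted p = 0.00678). In tnpo3 mutants it had 91.1%, 88.0% and 90.5%, lower than in controls by 9.69 points (limma adjusted p = 0.00418) and so short of the 10 points of a call.

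The 30 bp exon of scpp5 (ENSDARG00000078622), which encodes a phosphoprotein of mineralised tissue, lies at chr1:44293645-44293674. It had 83.9%, 80.1% and 73.2% in snapc3 mutants, against 98.0%, 98.9% and 98.3% in controls (limma adjusted p = 0.0203). The 21 bp exon of a gene named A2ML1 (ENSDARG00000093199), after a human protease inhibitor of the alpha-2-macroglobulin family, lies at chr15:19974644-19974664. It had 92.0%, 76.7% and 76.7% in snapc3 mutants, against 100%, 100% and 97.7% in controls, at a mean of only 13.5 reads (limma adjusted p = 0.033). The 10 bp exon of c6ast4 (ENSDARG00000052578), an astacin metalloprotease gene at chr7:40029978-40029987, had no read in 1 mutant library and 0.0% and 100% in the other 2, against 100% in each control. These mutant values rest on 4 reads and 1 read, and the groups overlap (limma adjusted p = 0.00302 with the pseudocount standing in for the library without reads). The c6ast4 exon did not pass by the authors' deposited FDR.

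In 2 called exons the event with most reads was not the called one. For the 21 bp exon of zgc:153968 (ENSDARG00000061858) at chr3:21440539-21440559, the called event had 75.8%, 54.8% and 67.8% in snapc3 mutants, against 100% in each control (limma adjusted p = 1.66e-06, mean of 312.5 reads). The event of the same exon with a nearer downstream exon had more reads, 360.0 on average, and 98.6 ± 1.8% in snapc3 mutants against 100 ± 0% in controls (SD, n = 3 each). For the 23 bp exon of SPINK4 (ENSDARG00000091609), named after a protease inhibitor, at chr1:11431774-11431796, the called event had 44.1%, 56.8% and 81.8% in snapc3 mutants, against 98.2%, 94.8% and 97.2% in controls at a mean of 14.5 reads (limma adjusted p = 0.0104). The event with 141.5 reads had 92.9 ± 5.1% in snapc3 mutants against 98.9 ± 1.2% in controls and was not called (limma adjusted p = 0.106).

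Relative to controls, the log2 ratios of the 8 called events lay between -9.82 (SE 0.83) in zgc:153968 and -2.27 in mef2cb, and mean reads per library were 95.7 in mef2cb, 84.0 in scpp5 and 80.7 in kifc1. With 1 event per exon, 6 microexons were called in snapc3 mutants. The count was 14, 9 lower and 5 higher, without control library 2, 4 without mutant library 2 and 3 in a fit over all 4 groups, so that its size rests on single libraries, while itpk1 held its call in 17 of 18 alternatives and zgc:153968 in 15 of 16.

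**Figure D4:**
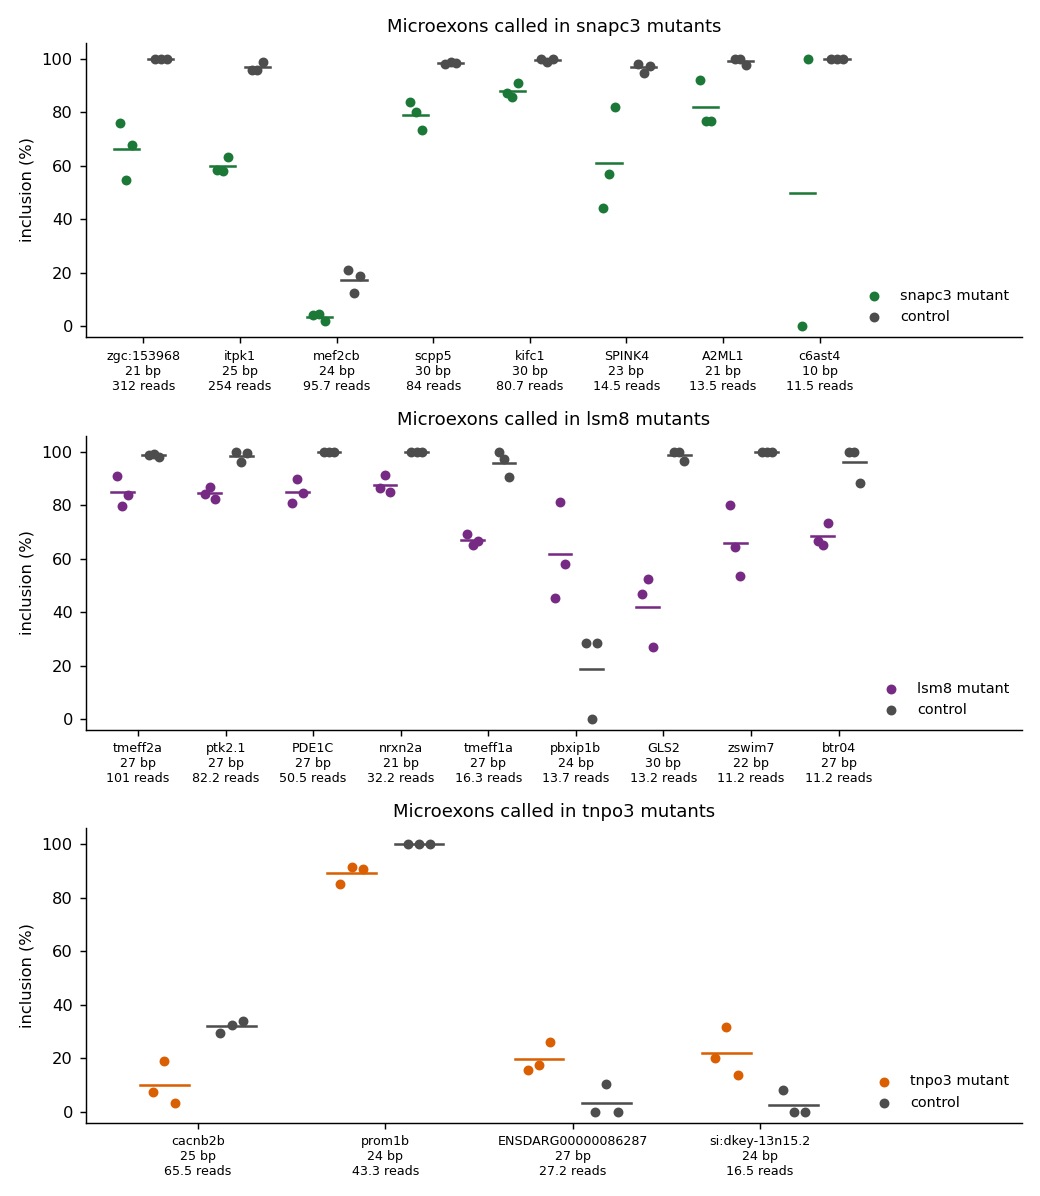
Inclusion (percent) of the microexons called in snapc3, lsm8 or tnpo3 mutants, with each mutant library and each control library as a point and mutants drawn to the left of controls. The itpk1 exon stands at 58.2% to 63.4% in snapc3 mutants, with all 3 control libraries at 95.8% or more.

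In lsm8 mutants 10 of 724 microexon events (1.38%), in 9 exons, were called, beside 1.16% of all 22499 tested exons. Lower inclusion was called for 9 events (1.24%), beside 1.06% of all exons, and higher inclusion for 1 event (0.138%), beside 0.0933%. By the authors' deposited FDR with 10 points the count was 26 (3.59%), 18 lower and 8 higher, beside 2.11% of all exons, and 8 of the 10 were among them. In each of the 10 events the groups did not overlap, 4 of them had no skipping read in controls, and 5 had a mean under 20 reads. Of the 9 exons, 1 had a length that was not a multiple of 3. No exon was called in more than 1 mutant.

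The 27 bp exon of tmeff2a (ENSDARG00000051824), whose protein spans the membrane and carries EGF-like and follistatin-like domains, lies at chr9:25378887-25378913. It had 90.9%, 79.6% and 83.8% in lsm8 mutants, against 98.8%, 99.2% and 98.0% in controls, and both of its events were called, with -13.9 points (limma adjusted p = 0.0189) and -18.2 points (limma adjusted p = 0.00111). The related gene tmeff1a (ENSDARG00000008191) also has a 27 bp microexon, at chr2:42282698-42282724. It had 69.2%, 65.2% and 66.7% in lsm8 mutants, against 100%, 97.1% and 90.4% in controls (limma adjusted p = 0.00792), at a mean of 16.3 reads. Both paralogues thus had a called exon of 27 bp.

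The 21 bp exon of nrxn2a (ENSDARG00000061454), a neurexin gene, at chr21:27587320-27587340 had 86.5%, 91.1% and 84.8% in lsm8 mutants, against 100% in each control (limma adjusted p = 0.00309). This event stands only in the lsm8 table. In ptk2.1 (ENSDARG00000004672), which encodes focal adhesion kinase, the 27 bp exon at chr16:33153574-33153600 had 84.3%, 86.7% and 82.3% in lsm8 mutants, against 100%, 95.9% and 99.4% in controls (limma adjusted p = 0.0137). The 27 bp exon of PDE1C (ENSDARG00000012490), which encodes a calmodulin-dependent phosphodiesterase, lies on scaffold Zv9_NA797 from 40403 to 40429. It had 80.6%, 89.7% and 84.4% in lsm8 mutants, against 100% in each control (limma adjusted p = 0.00101). These 3 exons were included in nearly every control read and were skipped in a minority of mutant reads.

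The largest fall was in GLS2 (ENSDARG00000002917), which encodes a glutaminase, in a 30 bp exon at chr22:10215347-10215376. It had 46.8%, 52.4% and 26.8% in lsm8 mutants, against 100%, 100% and 96.4% in controls, a difference of -56.8 points (log2 ratio -5.57, SE 0.72, limma adjusted p = 8.26e-05). The depth was low, at a mean of 13.2 reads, and the call held in 16 of 17 alternatives. In snapc3 mutants the exon had 100% in each library, and the gene itself was listed lower there in the authors' deposited table of expression, with a log2 fold change of -1.33.

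Among the other called exons of few reads, the 22 bp exon of zswim7 (ENSDARG00000067608), whose human counterpart acts in homologous recombination, at chr5:65791039-65791060 had 80%, 64.3% and 53.3% in lsm8 mutants, against 100% in each control (limma adjusted p = 0.00122). A 27 bp exon of btr04 (ENSDARG00000060962), a TRIM family gene, at chr7:16951385-16951411 had 66.7%, 65.2% and 73.3% in lsm8 mutants, against 100%, 100% and 88.2% in controls (limma adjusted p = 0.017). The only higher exon was a 24 bp exon of pbxip1b (ENSDARG00000011824), which encodes a protein that interacts with PBX factors, at chr16:24943105-24943128. It had 45.3%, 81.3% and 58.1% in lsm8 mutants, against 28.4%, 0.0% and 28.4% in controls, at a mean of 13.7 reads (limma adjusted p = 0.0286). By the authors' deposited FDR, the exons of pbxip1b (0.651) and zswim7 did not pass in lsm8 mutants.

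Its paralogue pbxip1a has a 24 bp exon at chr19:8182730-8182753 with deeper coverage. There the lsm8 mutants had 82.2%, 81.2% and 77.0%, against 47.0%, 62.0% and 70.1% in controls, a difference of 20.4 points without overlap that did not pass (limma adjusted p = 0.211). The lsm8 count was 23 without control library 3, 4 without mutant library 2, 21 without the division by form length, 20 with precision weights (an alternative added after seeing simulated data) and 4 in a fit over all 4 groups. Mean reads per library were 100.7 in tmeff2a, 82.2 in ptk2.1, 50.5 in PDE1C, 32.2 in nrxn2a and 11.2 in both zswim7 and btr04. The calls of pbxip1b and btr04 were lost with precision weights.

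In tnpo3 mutants 4 of 638 microexon events (0.627%) were called, beside 2.18% of all 27050 tested exons. Lower inclusion was called for 2 (0.313%), beside 2.07% of all exons, and higher inclusion for 2 (0.313%), beside 0.115%. By the authors' deposited FDR with 10 points the count was 13 (2.04%), 4 lower and 9 higher, beside 3.1% of all exons, and 2 of the 4 were among them. In each of the 4 the groups did not overlap.

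The clearest by reads is a 25 bp exon of cacnb2b (ENSDARG00000055565), which encodes a beta subunit of voltage-gated calcium channels, at chr2:31224454-31224478. It had 7.58%, 18.99% and 3.50% in tnpo3 mutants, against 29.4%, 32.4% and 34.1% in controls, a difference of -22.0 points (log2 ratio -2.16, SE 0.58, limma adjusted p = 0.0241). The snapc3 mutants had 29.4%, 17.2% and 15.6% and the lsm8 mutants 28%, 53.2% and 35.7%, neither called. The 24 bp exon of prom1b (ENSDARG00000034007), whose mammalian counterpart shapes photoreceptor membranes, lies at chr1:21508841-21508864. Its called event had 85.3%, 91.4% and 90.8% in tnpo3 mutants, against 100% in each control (limma adjusted p = 0.00185). The event of that exon with most reads, 142.5 on average, had 75.5 ± 2.2% in tnpo3 mutants and 72.6 ± 3.5% in controls (SD, n = 3 each) and was not called (limma adjusted p = 0.848).

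Both exons with higher inclusion were nearly absent from control RNA. A 27 bp exon of ENSDARG00000086287, which has no symbol, at chr20:54949529-54949555 had 15.8%, 17.6% and 26.3% in tnpo3 mutants, against 0.0%, 10.3% and 0.0% in controls (limma adjusted p = 0.0238). A 24 bp exon of si:dkey-13n15.2 (ENSDARG00000061806) at chr5:22835070-22835093 had 20.1%, 31.7% and 13.8% in tnpo3 mutants, against 8.11%, 0.0% and 0.0% in controls (limma adjusted p = 0.0303). Neither higher exon passed by the authors' deposited FDR, which was 0.0745 for ENSDARG00000086287 and above that for si:dkey-13n15.2. Mean reads per library were 65.5 in cacnb2b, 43.3 in the called prom1b event, 27.2 in ENSDARG00000086287 and 16.5 in si:dkey-13n15.2. The count in tnpo3 mutants was 7 without control library 2, 9 without control library 3, 2 without mutant library 1, 1 without mutant library 3, 1 without a read minimum and 1 in a fit over all 4 groups. With precision weights cacnb2b (limma adjusted p = 0.0793) and both higher exons lost their calls, and cacnb2b held its call in 12 of 18 alternatives.

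Many microexons with larger differences did not pass the test. At least 10 points separated the group means of 103 of 725 microexons in snapc3 mutants (72 lower, 31 higher). In lsm8 mutants it was 115 of 724 (64 lower, 51 higher), and in tnpo3 mutants 81 of 638 (29 lower, 52 higher). Over all tested exons the count was 1191 of 22314 in snapc3 mutants (859 lower, 332 higher). The all-exon counts were 1474 of 22499 in lsm8 mutants (1085 lower, 389 higher) and 2075 of 27050 in tnpo3 mutants (1662 lower, 413 higher). Among events of 20% to 80% control inclusion they were 68 of 207, 77 of 210 and 57 of 206 for microexons. For all exons of that control inclusion they were 482 of 1627, 630 of 1642 and 633 of 1663. By the authors' deposited FDR with 10 points, 316, 474 and 838 of all tested exons were called, where limma called 154, 260 and 591. The FDR in the authors' deposited tables was under 0.05 for 12, 18 and 11 of the microexons past 10 points that limma did not call. They included prc1a in snapc3 and tnpo3 mutants, zgc:91860, trip12, mark3 and the pbxip1a exon above in lsm8 mutants, fam19a5, lhfpl4a, arhgef6 and frya in tnpo3 mutants and frya in snapc3 mutants.

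In snapc3 mutants the lowest differences among microexons with a mean of at least 50 reads that were not called were in cep290, mtss1l and smarcb1b. The 21 bp exon of cep290, a gene of the ciliary transition zone, at chr25:18484715-18484735 had 51.7%, 43.9% and 15.96% in snapc3 mutants, against 72.9%, 71.2% and 56.2% in controls (limma adjusted p = 0.172). The 9 bp exon of mtss1l at chr18:14371299-14371307 had 49.6%, 79.0% and 31.6% in snapc3 mutants, against 77.9%, 78.3% and 73.4% in controls, with overlap. The 12 bp exon of smarcb1b, a subunit of SWI/SNF chromatin remodellers, at chr21:13817840-13817851 had 66.3%, 48.6% and 36.5% in snapc3 mutants, against 63.0%, 74.6% and 82.7% in controls, also with overlap. The highest were in prc1a, mybpc1 and robo2. A 29 bp exon of prc1a, a gene of the spindle midzone, on scaffold Zv9_NA363 from 4518 to 4546 had 49.8%, 23.9% and 42.6% in snapc3 mutants, against 7.04%, 22.5% and 13.4% in controls (limma adjusted p = 0.106). The tnpo3 mutants had 33.8%, 44.5% and 24.9% in the same exon, also above every control library.

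In lsm8 mutants 3 of these exons kept their libraries close together. The 30 bp exon of zgc:91860 at chr18:17111532-17111561 had 48.5%, 44.2% and 44.7% in lsm8 mutants, against 74.9%, 69.3% and 72.7% in controls, a difference of -26.5 points at a mean of 191.7 reads (limma adjusted p = 0.0931). In trip12, an E3 ubiquitin ligase gene, the 30 bp exon at chr18:39575776-39575805 had 60.3%, 53.0% and 63.4% in lsm8 mutants, against 81.2%, 79.7% and 89.6% in controls (limma adjusted p = 0.0868). In mark3, a microtubule affinity-regulating kinase gene, the 27 bp exon at chr13:15612270-15612296 had 63.0%, 67.5% and 57.3% in lsm8 mutants, against 42.5%, 34.1% and 42.5% in controls (limma adjusted p = 0.173). With precision weights all 3 were called, at limma adjusted p values of 0.00145, 0.0072 and 0.0211. Among uncalled lsm8 events with a mean of at least 50 reads, the lowest difference, in the 12 bp exon of si:dkey-248g15.3, came from a single lsm8 library at 0.0% beside 95.8% and 99.3%, and the highest, in the 9 bp exon of fryl, from a single control library at 0.0% beside 56.4% and 66.7%. The fryl control levels rest on 5, 0 and 6 inclusion reads beside 58, 48 and 45 skipping reads, at form lengths of 4 and 60. In si:dkey-248g15.3 the lsm8 level of 0.0% rests on 0 inclusion and 2 skipping reads, and control library 3 had no read of either form.

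In tnpo3 mutants the highest differences that were not called, again with at least 50 reads, were in fam19a5, lhfpl4a and arhgef6. The 28 bp exon of fam19a5, a secreted protein gene, at chr4:26550122-26550149 had 73.6%, 76.2% and 74.1% in tnpo3 mutants, against 43.1%, 53.3% and 49.2% in controls, 26.1 points higher (limma adjusted p = 0.0937). The 17 bp exon of lhfpl4a, whose mammalian counterpart acts in the assembly of GABA-A receptors, at chr6:23444467-23444483 had 93.3%, 84.5% and 88.8% in tnpo3 mutants, against 71.4%, 70.4% and 55.1% in controls (limma adjusted p = 0.0709). The 21 bp exon of arhgef6 at chr14:32683397-32683417 had 58.5%, 61.6% and 58.4% in tnpo3 mutants, against 40.5%, 42.5% and 33.9% in controls (limma adjusted p = 0.24). All 3 were without overlap, and the first 2 were called with precision weights, at limma adjusted p values of 0.00816 and 0.0111. The lowest were in arhgef18a, frya and nrcama, of which the 18 bp exon of frya at chr15:31149712-31149729 had 13.8%, 19.6% and 24.5% in tnpo3 mutants, against 48.6%, 34.9% and 40.2% in controls (limma adjusted p = 0.107). In frya the snapc3 mutants, at 23.5%, 19.6% and 17.2%, also lay below every control library.

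A contrast of mutant with mutant, over events with the same coordinates in both tables, tests where the mutants differ from each other. In lsm8 mutants relative to snapc3 mutants 12 of 606 microexons (1.98%) were called, 7 lower and 5 higher, beside 0.977% of all exons. In tnpo3 mutants relative to snapc3 mutants 9 of 579 (1.55%) were called, all higher, beside 1.92% of all exons. There were 17 lower microexons at an unadjusted p under 0.05 in that contrast, and 0 called by limma. In tnpo3 mutants relative to lsm8 mutants 16 of 584 (2.74%) were called, 2 lower and 14 higher, beside 2.43% of all exons. Calls and unadjusted p-values over all exons were not split by direction in these contrasts. The directions among microexons thus cannot be read as particular to them. The 37 calls fell in 29 exons, of which 10 were also called in a mutant against controls. The contrasts share their control libraries through the fit only, and each sets mutant libraries of 1 background against those of another. Without any 1 mutant library, 2 to 8 microexons were called in the first contrast, 2 to 5 in the second and 3 to 7 in the third.

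The exon of itpk1 was higher in lsm8 mutants than in snapc3 mutants by 31.9 points (limma adjusted p = 0.0395) and higher in tnpo3 mutants than in snapc3 mutants by 39.3 points (limma adjusted p = 0.00492). The gene ric8a encodes a chaperone of G-alpha proteins, and its mutant values lay on opposite sides of the controls. Its 18 bp exon at chr25:10676740-10676757 had 74.3%, 71.3% and 79.8% in lsm8 mutants and 21.9%, 29.3% and 33.4% in snapc3 mutants, with 46.2%, 40.6% and 59.9% in controls between them. The mutants differed by 46.9 points (limma adjusted p = 0.0126), while neither passed against controls in limma. In lsm8 mutants, 26.25 points above controls, the FDR in the authors' deposited table was 0.0183. The 14 bp exon of ccnl1a, which encodes a cyclin L, at chr18:39857236-39857249 had 49.0%, 50.99% and 52.1% in lsm8 mutants and 81.6%, 79.5% and 83.2% in snapc3 mutants, with 62.6%, 76.2% and 72.1% in controls. That difference of -30.8 points was past the threshold (limma adjusted p = 0.0363). Against controls the authors' deposited FDR of this exon was 0.00602 in snapc3 mutants (11.11 points) and 7.38e-06 in lsm8 mutants (-19.65 points). In tnpo3 mutants it was 0.00888 (-12.76 points). A frame shift would follow skipping of the ccnl1a exon in coding sequence, since 14 is not a multiple of 3.

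Exons that were higher in tnpo3 mutants than in both other mutants were found in mecom and pikfyve, besides the low-read SPINK4 event. In mecom, which encodes a zinc finger transcription factor, the 27 bp exon at chr15:34661381-34661407 had 86.4%, 82.6% and 78.3% in tnpo3 mutants, 39.4%, 55.1% and 34.3% in lsm8 mutants and 45.9%, 64.3% and 44.6% in snapc3 mutants. The limma adjusted p was 0.0161 against lsm8 mutants and 0.0473 against snapc3 mutants. The 27 bp exon of pikfyve, a lipid kinase gene, at chr9:33118300-33118326 had 64.7%, 55.3% and 65.2% in tnpo3 mutants, 33.3%, 24.1% and 36.6% in lsm8 mutants and 32.7%, 33.3% and 32.3% in snapc3 mutants, with 51.2%, 41.7% and 49.2% in controls between them. Here the limma adjusted p was 0.0294 against lsm8 mutants and 0.0364 against snapc3 mutants. Exons of unlike length in the calcium channel paralogues cacnb2b and cacnb2a went opposite ways between tnpo3 and lsm8 mutants. Whether these exons are counterparts was not examined. The exon of cacnb2b was lower in tnpo3 mutants than in lsm8 mutants by 28.9 points (limma adjusted p = 0.0236), and a 20 bp exon of cacnb2a at chr7:74477375-74477394 was higher by 37.3 points (limma adjusted p = 0.0371), with 48.0%, 71.0% and 57.2% in tnpo3 mutants and 32.9%, 25.9% and 5.45% in lsm8 mutants.

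**Figure D5:**
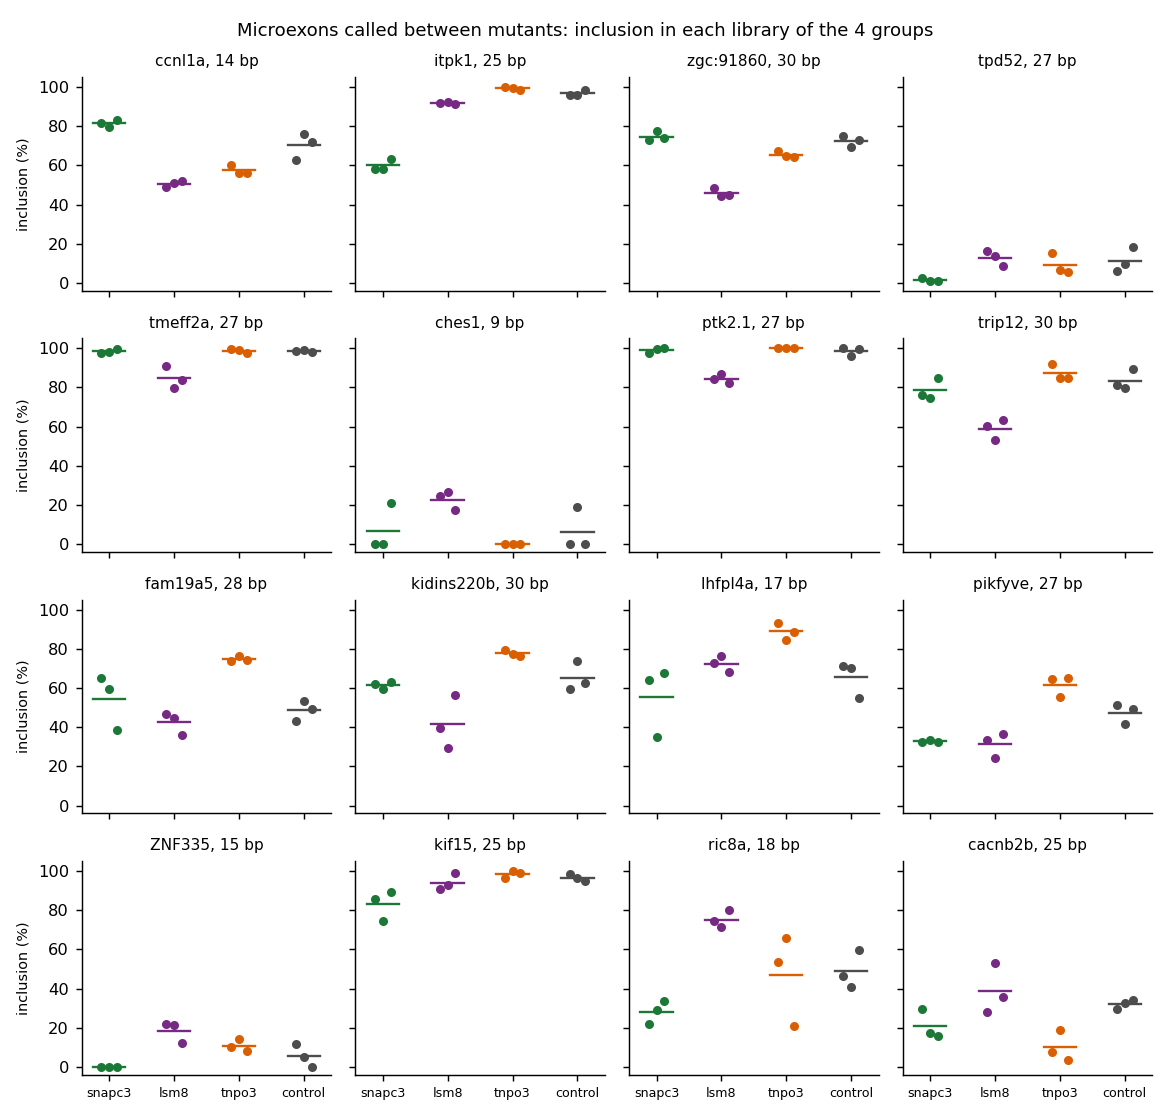
Inclusion (percent) in snapc3, lsm8, tnpo3 and control libraries of the 16 microexons with most reads among those called between mutants, each point a library. In ric8a and pikfyve the controls lie between the mutants that differ, and in itpk1 the snapc3 libraries at 58.2% to 63.4% stand apart from the other 3 groups.

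The genes with several microexons show how differently the microexons of 1 gene can be included. In tnnt3b the 11 bp and 19 bp exons were almost always included in snapc3 mutants, with means of 99.99% and 99.95%, against 100% in controls, and the 19 bp exon had 89.8% to 100% in lsm8 mutants. The 21 bp exon was nearly always skipped, with 2.62% in snapc3 mutants, 0.65% in lsm8 mutants and 7.74% in tnpo3 mutants against 2.16% in controls. The 18 bp exon at chr7:40843693-40843710, with a mean of over 1000 reads in each table, had 86.0%, 84.5% and 83.4% in snapc3 mutants, 91.1%, 91.8% and 93.2% in lsm8 mutants and 90.8%, 91.6% and 91.9% in tnpo3 mutants, against 87.6%, 88.8% and 89.4% in controls. Every mutant group lay outside the range of the controls, the snapc3 mutants below and the other 2 above, by amounts between 2.83 and 4.003 points that did not pass in limma. The FDR of this 18 bp exon in the authors' deposited tables was 0.0237 in snapc3 mutants and 0.00738 in lsm8 mutants. The 12 bp exon had 46.3 ± 5.6%, 52.0 ± 1.1% and 45.3 ± 7.3% in snapc3, lsm8 and tnpo3 mutants and 53.8 ± 2.8% in controls (SD, n = 3 each).

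In nrxn1a the 27 bp and 18 bp exons had means of 84.7% and 82.2% in snapc3 mutants, 90.3% and 74.9% in lsm8 mutants and 88.2% and 84.7% in tnpo3 mutants, against 86.2% and 83.7% in controls. Its 30 bp exon had 68.8%, 63.6% and 70.1% in snapc3, lsm8 and tnpo3 mutants and 71.4% in controls, and its 12 bp exon at least 98.6% in each group. Both 27 bp exons of nrxn3a differed in level by far more than any group did, since 1 averaged between 21.1% and 22.9% in the mutants and 23.6% in controls and the other between 77.2% and 82.9% in the mutants and 83.7% in controls. Only the nrxn2a exon named above was called among the neurexin microexons. In mybpc1, a 9 bp exon at chr4:16831466-16831474 had 79.4%, 86.6% and 86.4% in snapc3 mutants and 82.9%, 81.1% and 81.0% in tnpo3 mutants, against 65.2%, 56.2% and 78.6% in controls, and neither difference passed in limma. These mybpc1 levels are raised by form lengths of 2 and 50. The mean share of inclusion reads was 18.1% in snapc3 mutants, 15.1% in tnpo3 mutants and 8.2% in controls.

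Microexons lay in genes of 11 of the 12 functional and marker lists in the lsm8 table, and 161 of all 804 stood in the 131 listed genes. Among axon, adhesion and synapse genes 0 of 42 were called in snapc3 mutants, 1 of 42 (nrxn2a, lower) in lsm8 mutants and 0 of 44 in tnpo3 mutants, with median differences of -1.19, -1.48 and 0.20 points. At an unadjusted limma p under 0.05 there were 4, 5 and 1. The list counts at that p are to be read beside those of all tested exons. These were 2871 of 22314 in snapc3 mutants, 3791 of 22499 in lsm8 mutants and 4569 of 27050 in tnpo3 mutants. Of all microexons, 93 of 725, 121 of 724 and 61 of 638 had such a p. Cytoskeleton and motor genes had 0 of 37, 0 of 38 and 0 of 36 called by limma, with 2, 5 and 1 at an unadjusted p under 0.05 and medians of -0.38, 1.09 and 2.10 points. Vesicle traffic and endocytosis genes had 0 of 19, 0 of 18 and 0 of 17 called by limma, with 1, 0 and 0 at that unadjusted p and medians of -0.24, 0.88 and 4.16 points. The medians of all tested exons were -0.37, -0.39 and -0.59 points, and in tnpo3 mutants these 3 lists lay above it, as did the median of all microexons at 0.27 points.

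Ion channel and calcium handling genes had 0 of 25, 0 of 25 and 1 of 22 called in snapc3, lsm8 and tnpo3 mutants, the last being cacnb2b, with 0, 5 and 2 at an unadjusted limma p under 0.05 and medians of -0.71, -0.96 and 1.19 points. Transcription and chromatin genes had 1 of 10 (mef2cb), 0 of 13 and 0 of 9 called, with 3, 2 and 1 at that unadjusted p and medians of -4.85, -0.52 and 0.73 points. Kinase, GTPase and phosphatase genes had 0 of 13, 0 of 12 and 0 of 12 called by limma, with 1, 0 and 1 at that unadjusted p and medians of -1.88, -0.66 and 1.91 points. Sarcomere and muscle structure genes had 0 of 15, 0 of 16 and 0 of 15 called by limma, with 0, 3 and 1 at that unadjusted p and medians of -0.05, 0.20 and 0.55 points. RNA binding and translation genes had 0 of 4, 0 of 4 and 0 of 3 called, with 0 at that unadjusted p in each and medians of -0.41, -0.30 and -4.76 points. The neuronal markers had 0 of 5, 0 of 6 and 0 of 5 called, with 0, 2 and 0 at that unadjusted p and medians of -1.51, -0.39 and -0.44 points. The skeletal muscle markers had 0 of 9, 0 of 8 and 0 of 6 called by limma, with 0, 3 and 1 at that unadjusted p and medians of -0.14, -0.03 and -0.23 points. The photoreceptor markers had a single microexon, the 15 bp exon of saga, with 99.7% in lsm8 mutants against 100% in controls. The splicing regulators had 1, a 27 bp exon of mbnl1, with 99.6% in tnpo3 mutants against 100% in controls.

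Within these lists the most heavily read exons give the scale of the differences. The 27 bp exon of ppp3ccb, a calcineurin catalytic subunit gene, at chr10:20263749-20263775 had 59.5%, 62.8% and 56.7% in snapc3 mutants and 58.1%, 57.8% and 64.0% in lsm8 mutants, against 71.6%, 70.8% and 68.6% in controls. In tnpo3 mutants it had 81.4%, 76.2% and 80.2%, above every control library. None of the 3 differences, between -10.67 and 8.93 points, passed in limma. The FDR in the authors' deposited tables was 0.009 in snapc3 mutants, 0.0101 in lsm8 mutants and 0.0046 in tnpo3 mutants. The 12 bp exon of ap2a1, a clathrin adaptor subunit gene, at chr3:32536257-32536268 had 35.4%, 38.2% and 34.0% in tnpo3 mutants, against 24.3%, 32.2% and 24.7% in controls (limma adjusted p = 0.623). In ank3b, an ankyrin gene, the 27 bp exon at chr12:8330122-8330148 had 70.7%, 68.1% and 74.7% in tnpo3 mutants, against 57.5%, 58.6% and 67.0% in controls (limma adjusted p = 0.623). The authors' deposited FDR of this ank3b difference was 0.019. In grin1a, an NMDA receptor subunit gene, the 27 bp exon at chr21:9920985-9921011 stayed between 8.8% and 16.4% in all 12 libraries.

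Other listed exons were as even. In the 18 bp exon of atp2a1, the calcium pump gene of the fast muscle reticulum and the exon with most reads among those named, inclusion was at least 99.98% in every library at means of 7641 reads or more. The 30 bp exon of ldb3b, a Z-disc gene, was at 97.4% or more in every library, and each mutant overlapped the controls. The 18 bp exon of kdm1a, a histone demethylase gene, had 95.4% to 97.4% in lsm8 mutants and 96.1% to 98.1% in snapc3 mutants, both below every control library at 98.2% to 99.3%, without passing (limma adjusted p = 0.365 and 0.693). For kdm1a in lsm8 mutants the authors' deposited FDR was 0.0142. Exons of intermediate level spread more widely. The 18 bp exon of exoc1, an exocyst subunit gene, at chr20:25904424-25904441 had 40.1%, 33.4% and 35.1% in snapc3 mutants, 54.6%, 45.1% and 47.7% in lsm8 mutants and 58.0%, 42.2% and 49.4% in tnpo3 mutants, against 44.7%, 27.6% and 45.1% in controls. The snapc3 and tnpo3 mutants overlapped the controls, and the lowest lsm8 library lay just above the highest control. The 24 bp exon of mapk10, a JNK kinase gene, at chr21:8604219-8604242 had 40.2%, 39.5% and 36.8% in lsm8 mutants, against 43.0%, 51.7% and 50.7% in controls, without overlap and without passing (limma adjusted p = 0.583). In mef2d, a relative of mef2cb, the 30 bp exon at chr16:31322509-31322538 had 69.4%, 71.1% and 66.0% in snapc3 mutants, against 76.2%, 73.5% and 82.2% in controls, a difference of -8.43 points without passing (limma adjusted p = 0.699). A 24 bp exon of cpeb3, a gene of a cytoplasmic polyadenylation factor, at chr13:43093393-43093416 had 54.9%, 52.4% and 48.7% in lsm8 mutants, against 28.4%, 51.5% and 34.3% in controls, with overlap.

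Among the listed regulators of microexons and neural splicing, srsf1b, an SR protein gene, was listed higher in tnpo3 mutants in the authors' deposited table, with a log2 fold change of 1.28 (SE 0.08) and a deposited adjusted p of 0.0212. Of the exons of any length in these regulators, 1 of 170 (0.588%) was called in snapc3 mutants, 1 of 185 (0.541%) in lsm8 mutants and 3 of 198 (1.52%) in tnpo3 mutants, beside 0.69%, 1.16% and 2.18% of all tested exons. An exon of 36 bp in srsf3a was included at 86.0 ± 2.9% in snapc3 mutants and 99.8 ± 0.2% in controls, and an exon of 398 bp of the same gene at 3.16 ± 0.74% in tnpo3 mutants and 18.1 ± 2.4% in controls (SD, n = 3 each). In lsm8 mutants an exon of 42 bp in msi2a had 87.8 ± 2.7%, against 100 ± 0% in controls. In tnpo3 mutants an exon of 188 bp in celf1 had 87.9 ± 3.5% against 100 ± 0%, and an exon of 169 bp in srsf6b had 13 ± 2.9% against 36.7 ± 7.2% in controls. Whether these exons bear on the microexons was not tested.

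Few genes with a microexon were listed in the authors' deposited tables of gene expression, which hold only genes past the authors' own thresholds. These were 9 of 609 genes (1.48%) in snapc3 mutants, 6 of 591 (1.02%) in lsm8 mutants and 1 of 521 (0.192%) in tnpo3 mutants. Of all genes with a tested exon, 1.73%, 2.66% and 0.410% were listed. Among them, in the authors' deposited table for lsm8 mutants, were snrpe and SNRPG, genes of core proteins of the spliceosomal snRNPs, with log2 fold changes of 1.98 and 1.86. Of the genes with a microexon called in the same mutant, SPINK4 in snapc3 mutants was listed, with a deposited log2 fold change of -2.31.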

How the data were processed

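Per the labels' protocols, RNA of whole zebrafish embryos was taken up in TRI Reagent, freed of DNA and turned into TruSeq stranded total RNA libraries with the Ribo-Zero kit. The submitters' processing notes name Zv9 as the genome build and, as tools, limma 3.26.3, TopHat2 2.0.13, featureCounts 1.4.5-p1 and Bowtie2 2.2.3. No source used here names the caller of the splicing events.

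The skipped-exon tables that the authors deposited, 1 per mutant, give junction read counts of both forms in 3 mutant and 3 control libraries, the length of each form, and a p-value and FDR per event. Inclusion levels stand there as a fraction and were recomputed from the counts. Deposited tables of gene expression hold log2 fold change, average log2 expression, p-value and a log-odds score for genes past the authors' thresholds, and their fold changes and adjusted p-values are quoted. Control columns were recognised by counts that were identical between the tables. Libraries in a table carry no replicate number, and "library 2" names only a place. Per-sample columns not used numbered 0.

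Members and gene lists were chosen with earlier results of these data known. Inclusion and all tests were computed in R 4.3.3 with limma 3.58.1 (trend, robust) on log2 of the count plus 0.5 over the form length, inclusion minus skipping. Events needed a mean of 10 reads per library of the table, and p-values were adjusted by Benjamini-Hochberg over all tested exons. Tables were joined with pandas 2.3.3 and numpy 2.4.6. Tested on simulated data, the procedure gave more false calls among events of few reads than its threshold allows, so a fit with precision weights was added afterwards.

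Named are all called microexons, the 3 highest and 3 lowest differences per mutant among uncalled microexons with at least 50 reads, the 6 most read of intermediate inclusion, the 5 shortest (1 of them is not reported here), up to 3 per gene list and those called between mutants. Where an exon had several events the called event is shown for called exons, with the event of most reads beside it. Exons of genes with several microexons, and some exons whose libraries separated without a call, were picked for description after their values were seen. No genome or sequence table was used here, and no sequences are printed.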

Additional observations from a re-analysis of the deposited data

Results flagged for a closer look

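The results below stand out because a mutant differed from another mutant in the limma contrast of the 2 groups themselves, with an adjusted p under 0.05 and at least 10 points between means. Means are of inclusion in percent (SD, n = 3 libraries each), differences are the first-named mutant minus the second in points, and the control mean follows for orientation. Mutation and background cannot be told apart in any of these. Some rest on few reads. In at least 1 comparison with controls the mean was under 20 reads per library for GLS2, zswim7, btr04, A2ML1, pdha1b, rims1a and the SPINK4 event.

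The first contrast, of lsm8 mutants relative to snapc3 mutants, set 12 microexons apart. The 30 bp exon of GLS2, a glutaminase gene, had 42.0 ± 13.4% in lsm8 mutants and 100 ± 0% in snapc3 mutants, a difference of -57.99 (limma adjusted p = 0.00549), with 98.8% in controls. In ccnl1a, a cyclin L gene, the 14 bp exon had 50.7 ± 1.6% in lsm8 mutants against 81.5 ± 1.9% in snapc3 mutants, a difference of -30.76 (limma adjusted p = 0.0364), and 70.3% in controls. For zswim7, whose human counterpart acts in homologous recombination, the 22 bp exon stood at 65.9 ± 13.4% in lsm8 mutants and at 95.7 ± 4.3% in snapc3 mutants, a difference of -29.82 (limma adjusted p = 0.049), beside 100% in controls. Of zgc:91860 the 30 bp exon had 45.8 ± 2.4% in lsm8 mutants and 74.7 ± 2.4% in snapc3 mutants, a difference of -28.92 (limma adjusted p = 0.0485), with 72.3% in controls. In ptk2.1, the gene of focal adhesion kinase, the 27 bp exon had 84.4 ± 2.2% in lsm8 mutants against 98.9 ± 1.3% in snapc3 mutants, a difference of -14.51 (limma adjusted p = 0.049), and 98.4% in controls. For PDE1C, a calmodulin-dependent phosphodiesterase gene, the 27 bp exon stood at 84.9 ± 4.6% in lsm8 mutants and at 98.6 ± 2.4% in snapc3 mutants, a difference of -13.73 (limma adjusted p = 0.0417), beside 100% in controls.

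Further microexons of the same contrast follow in order of difference. The 27 bp exon of tmeff2a, a transmembrane protein gene, had 84.8 ± 5.7% in lsm8 mutants and 98.4 ± 0.88% in snapc3 mutants, a difference of -13.62 (limma adjusted p = 0.0395), with 98.7% in controls. In tpd52 the 27 bp exon had 12.8 ± 3.9% in lsm8 mutants against 1.56 ± 0.71% in snapc3 mutants, a difference of 11.28 (limma adjusted p = 0.0254), and 11.1% in controls. For ZNF335, a zinc finger gene, the 15 bp exon stood at 18.5 ± 5.6% in lsm8 mutants and at 0 ± 0% in snapc3 mutants, a difference of 18.49 (limma adjusted p = 0.0443), beside 5.64% in controls. Of hpda, a gene of tyrosine breakdown, the 27 bp exon had 99.6 ± 0.67% in lsm8 mutants and 79.6 ± 2.1% in snapc3 mutants, a difference of 20.04 (limma adjusted p = 0.0395), with 96.8% in controls. In itpk1, an inositol phosphate kinase gene, the 25 bp exon had 91.8 ± 0.34% in lsm8 mutants against 59.96 ± 2.9% in snapc3 mutants, a difference of 31.87 (limma adjusted p = 0.0395), and 96.8% in controls. For ric8a, a G-alpha chaperone gene, the 18 bp exon stood at 75.2 ± 4.3% in lsm8 mutants and at 28.2 ± 5.8% in snapc3 mutants, a difference of 46.95 (limma adjusted p = 0.0126), beside 48.9% in controls.

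The contrast of tnpo3 mutants relative to lsm8 mutants set 16 microexons apart. The 25 bp exon of cacnb2b, a calcium channel beta subunit gene, had 10.02 ± 8.03% in tnpo3 mutants and 39.0 ± 12.9% in lsm8 mutants, a difference of -28.95 (limma adjusted p = 0.0236), with 32.0% in controls. In ches1, a forkhead gene, the 9 bp exon had 0 ± 0% in tnpo3 mutants against 22.8 ± 4.8% in lsm8 mutants, a difference of -22.80 (limma adjusted p = 0.0369), and 6.33% in controls. The lsm8 level of ches1 rests on 1 inclusion read in each library beside 80, 72 and 124 skipping reads, a mean share of 1.13% of reads that form lengths of 2 and 52 raise. For PDE1C, a calmodulin-dependent phosphodiesterase gene, the 27 bp exon stood at 98.1 ± 1.7% in tnpo3 mutants and at 84.9 ± 4.6% in lsm8 mutants, a difference of 13.15 (limma adjusted p = 0.0466), beside 100% in controls. Of tmeff2a, a transmembrane protein gene, the 27 bp exon had 98.7 ± 0.91% in tnpo3 mutants and 84.8 ± 5.7% in lsm8 mutants, a difference of 13.91 (limma adjusted p = 0.0175), with 98.7% in controls. In ptk2.1, the gene of focal adhesion kinase, the 27 bp exon had 100 ± 0% in tnpo3 mutants against 84.4 ± 2.2% in lsm8 mutants, a difference of 15.57 (limma adjusted p = 0.00471), and 98.4% in controls. For SPINK4, in its event of few reads, the 23 bp exon stood at 100 ± 0% in tnpo3 mutants and at 81.2 ± 22.2% in lsm8 mutants, a difference of 18.82 (limma adjusted p = 0.0233), beside 96.7% in controls. The 15 bp exon of rims1a, a gene of the presynaptic active zone, had 93.7 ± 3.4% in tnpo3 mutants and 72.0 ± 5.2% in lsm8 mutants, a difference of 21.70 (limma adjusted p = 0.042), with 88.5% in controls. In trip12, an E3 ubiquitin ligase gene, the 30 bp exon had 87.3 ± 4.2% in tnpo3 mutants against 58.9 ± 5.3% in lsm8 mutants, a difference of 28.39 (limma adjusted p = 0.0312), and 83.5% in controls.

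Further microexons of the same contrast follow in order of difference. For pikfyve, a lipid kinase gene, the 27 bp exon stood at 61.7 ± 5.6% in tnpo3 mutants and at 31.3 ± 6.5% in lsm8 mutants, a difference of 30.39 (limma adjusted p = 0.0294), beside 47.4% in controls. Of btr04, a TRIM family gene, the 27 bp exon had 100 ± 0% in tnpo3 mutants and 68.4 ± 4.3% in lsm8 mutants, a difference of 31.59 (limma adjusted p = 0.0251), with 96.1% in controls. In fam19a5, a secreted protein gene, the 28 bp exon had 74.6 ± 1.4% in tnpo3 mutants against 42.4 ± 5.6% in lsm8 mutants, a difference of 32.20 (limma adjusted p = 0.0182), and 48.6% in controls. For trim25, an E3 ubiquitin ligase gene, the 27 bp exon stood at 65.0 ± 3.1% in tnpo3 mutants and at 32.6 ± 4.1% in lsm8 mutants, a difference of 32.41 (limma adjusted p = 0.0371), beside 53.3% in controls. The 30 bp exon of kidins220b, a gene of a neurotrophin receptor substrate, had 77.7 ± 1.5% in tnpo3 mutants and 41.8 ± 13.7% in lsm8 mutants, a difference of 35.82 (limma adjusted p = 0.0243), with 65.2% in controls. In cacnb2a, a calcium channel beta subunit gene, the 20 bp exon had 58.7 ± 11.6% in tnpo3 mutants against 21.4 ± 14.2% in lsm8 mutants, a difference of 37.33 (limma adjusted p = 0.0371), and 44.1% in controls. For mecom, a zinc finger transcription factor gene, the 27 bp exon stood at 82.4 ± 4.1% in tnpo3 mutants and at 42.9 ± 10.8% in lsm8 mutants, a difference of 39.51 (limma adjusted p = 0.016), beside 55.6% in controls. Of GLS2, a glutaminase gene, the 30 bp exon had 91.2 ± 8.8% in tnpo3 mutants and 42.0 ± 13.4% in lsm8 mutants, a difference of 49.18 (limma adjusted p = 0.0175), with 98.8% in controls.

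The contrast of tnpo3 mutants relative to snapc3 mutants set 9 microexons apart, all higher in tnpo3 mutants. The 21 bp exon of pdha1b, a pyruvate dehydrogenase subunit gene, had 100 ± 0% in tnpo3 mutants and 87.9 ± 1.6% in snapc3 mutants, a difference of 12.13 (limma adjusted p = 0.049), with 95.05% in controls. In kif15, a mitotic kinesin gene, the 25 bp exon had 98.4 ± 1.9% in tnpo3 mutants against 83.1 ± 7.9% in snapc3 mutants, a difference of 15.26 (limma adjusted p = 0.0451), and 96.5% in controls. For A2ML1, named after a protease inhibitor, the 21 bp exon stood at 100 ± 0% in tnpo3 mutants and at 81.8 ± 8.9% in snapc3 mutants, a difference of 18.22 (limma adjusted p = 0.0326), beside 99.2% in controls. Of gne, a gene of sialic acid synthesis, the 24 bp exon had 93.8 ± 5.4% in tnpo3 mutants and 68.0 ± 2.4% in snapc3 mutants, a difference of 25.79 (limma adjusted p = 0.0451), with 85.3% in controls. In pikfyve, a lipid kinase gene, the 27 bp exon had 61.7 ± 5.6% in tnpo3 mutants against 32.8 ± 0.52% in snapc3 mutants, a difference of 28.96 (limma adjusted p = 0.0364), and 47.4% in controls. For mecom, a zinc finger transcription factor gene, the 27 bp exon stood at 82.4 ± 4.1% in tnpo3 mutants and at 51.6 ± 11.0% in snapc3 mutants, a difference of 30.84 (limma adjusted p = 0.0473), beside 55.6% in controls. The 17 bp exon of lhfpl4a, whose mammalian counterpart acts in GABA-A receptor assembly, had 88.9 ± 4.4% in tnpo3 mutants and 55.5 ± 17.8% in snapc3 mutants, a difference of 33.32 (limma adjusted p = 0.0333), with 65.7% in controls. In SPINK4, in its event of few reads, the 23 bp exon had 100 ± 0% in tnpo3 mutants against 60.9 ± 19.2% in snapc3 mutants, a difference of 39.12 (limma adjusted p = 0.00379), and 96.7% in controls. For itpk1, an inositol phosphate kinase gene, the 25 bp exon stood at 99.3 ± 0.93% in tnpo3 mutants and at 59.96 ± 2.9% in snapc3 mutants, a difference of 39.31 (limma adjusted p = 0.00492), beside 96.8% in controls.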

How the results depend on the processing

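No paired analysis was possible because the library columns of the tables carry no replicate numbers. For snapc3, lsm8 and tnpo3 mutants, with 8, 10 and 4 calls, the counts were 21, 25 and 12 without a minimum difference, 4, 5 and 1 with 20 points, 19, 26 and 13 by the authors' deposited FDR, 3, 4 and 1 in a fit over all 4 groups and 25, 41 and 17 with a limit of 51 bp. A quasi-binomial model called 0 in each, with 70, 85 and 43 microexons at an unadjusted p under 0.05. Without division by form length the lsm8 and tnpo3 counts were 21 and 9. Precision weights, chosen after seeing simulated data, gave 20 in lsm8 mutants, and no read minimum gave 1 in tnpo3 mutants. Leaving out 1 library gave 4 to 14, 4 to 23 and 1 to 9 calls.

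The median differences without division by form length were -0.67, -0.49 and 0.31 points in snapc3, lsm8 and tnpo3 mutants. In lsm8 mutants the median was -0.28 with a minimum of 20 reads and -0.29 with 1 event per exon. Leaving out 1 library gave -0.58 to -0.50, -0.36 to -0.26 and 0.15 to 0.43 points.

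Between mutants, lsm8 against snapc3 had 12 calls, 7 without a read minimum, 7 with 20 points and 2 to 9 without 1 library. For tnpo3 against snapc3 the 9 calls became 3 without a read minimum, 14 without a minimum difference and 2 to 7 without 1 library. For tnpo3 against lsm8 the 16 calls became 30 without a minimum difference and 3 to 16 without 1 library. Over 39 named microexons and 681 combinations with a setting, 552 had the reported side of the threshold, 102 lost a call, 27 gained one and 0 changed direction. These counts pool called and uncalled microexons, and only a called one can lose a call, so they understate how often calls were lost. Losses ranged from 1 of 17 alternatives for GLS2 in lsm8 mutants to 12 of 17 for si:dkey-13n15.2 in tnpo3 mutants. The causes were not tested. Of the called events in snapc3, lsm8 and tnpo3 mutants, 3 of 8, 5 of 10 and 1 of 4 had a mean under 20 reads.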
